A study of Drosophila melanogaster with 55 samples.

Results

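The euchromatic border zones of pericentric heterochromatin were examined, that is, the 500 kb lying directly outside the pericentric boundary on 3 chromosome arms of Drosophila melanogaster. They were chosen by position alone, from the boundaries that the study set on the dm6 genome: positions 21590000 to 22089999 of 2L, 22747000 to 23246999 of 3L, and 4165642 to 4665641 of 3R. Cut into 1-kb bins outward from the boundary, they gave 1500 bins, of 94029 such bins in the euchromatin of chromosomes 2 and 3. The measurement was coverage, the share of a region, in percent of its bases, inside SICER islands, stretches of the genome where ChIP-seq reads are enriched over input DNA. Islands with a deposited score of at least 200 were used.

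Chromatin came from heads of adult flies aged 1 to 2 weeks. HP1 was profiled in AGO2 1-1-7 flies with 2 libraries, in Top3b26 flies with 3, in the double mutant Top3b26;AGO2 1-1-7 with 2 and in the control line w1118 with 3. Each of H3K9me2 and H3K9me3 was profiled with 3 libraries in Top3b26 and 3 in w1118. For complementation, single HP1 libraries were made from 5 lines: Top3b26 carrying a transgene for wild-type Top3b (WT), for the catalytic mutant Y332F or for a protein without the RGG box (dRGG), Top3b26 without a transgene, and w1118. FLAG ChIP had 2 libraries from FLAG-AGO2 flies, whose endogenous AGO2 is tagged, and 1 from untagged w1118, and Top3b ChIP had 3 from w1118. AGO2 1-1-7 is a CRISPR null allele, Top3b26 came from remobilization of a P-element, and the transgenes were driven by actin-Gal4 in Top3b26, so each line is a single allele or insertion. Whole heads mix neurons, glia, eye and fat tissue. The study calls its replicates independent ChIP experiments, and whether each used a separate collection of flies is not stated, so p-values measure only the spread between libraries.

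Heterochromatin is packed by HP1, which binds histone H3 methylated on lysine 9 and recruits the methyltransferases that mark the next nucleosomes. Packing can therefore spread from the centromeric side into neighbouring euchromatin, and genes moved next to this border are silenced in some cells and active in others, a behaviour known as position effect variegation. AGO2 is the Argonaute protein of the siRNA pathway, and Top3b is a topoisomerase able to act on RNA as well as DNA. The study asked whether both promote heterochromatin, and the border is where a shift of its limit would be seen.

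Sequences of the longest stretches that separated the lines, and of the edges of the longest HP1 runs, are given from the RefSeq Release 6 assembly (dm6), plus strand, 5′ to 3′. The first set shows the middle 300 bases of the longest stretches that separated the lines, with bases inside annotated transposable elements in capitals. The first of them had HP1 in all 3 libraries of w1118 and in neither of AGO2 1-1-7, and its middle is intronic sequence of nAChRalpha4 with 251 bases of an mdg1 retrotransposon.
chr3L:23214551-23214850, covered in w1118 and not in AGO2 1-1-7: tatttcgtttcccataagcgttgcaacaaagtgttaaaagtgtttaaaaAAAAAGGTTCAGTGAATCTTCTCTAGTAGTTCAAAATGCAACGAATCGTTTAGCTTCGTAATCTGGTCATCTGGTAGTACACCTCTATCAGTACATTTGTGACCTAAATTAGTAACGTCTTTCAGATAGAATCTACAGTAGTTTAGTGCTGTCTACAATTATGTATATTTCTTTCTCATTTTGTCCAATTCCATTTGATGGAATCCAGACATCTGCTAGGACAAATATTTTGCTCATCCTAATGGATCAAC
chr3L:23000701-23001000, covered in AGO2 1-1-7 and not in w1118, intron of nrm beside a foldback (FB) element: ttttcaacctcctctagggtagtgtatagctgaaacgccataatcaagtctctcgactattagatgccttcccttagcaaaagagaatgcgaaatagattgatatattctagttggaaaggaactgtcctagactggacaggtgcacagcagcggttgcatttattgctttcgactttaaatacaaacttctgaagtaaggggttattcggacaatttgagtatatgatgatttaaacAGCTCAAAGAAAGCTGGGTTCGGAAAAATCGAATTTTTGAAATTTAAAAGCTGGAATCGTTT
chr3R:4192551-4192850, covered in the double mutant and not in AGO2 1-1-7, outside protein-coding genes, in Tc1-2 and gypsy copies: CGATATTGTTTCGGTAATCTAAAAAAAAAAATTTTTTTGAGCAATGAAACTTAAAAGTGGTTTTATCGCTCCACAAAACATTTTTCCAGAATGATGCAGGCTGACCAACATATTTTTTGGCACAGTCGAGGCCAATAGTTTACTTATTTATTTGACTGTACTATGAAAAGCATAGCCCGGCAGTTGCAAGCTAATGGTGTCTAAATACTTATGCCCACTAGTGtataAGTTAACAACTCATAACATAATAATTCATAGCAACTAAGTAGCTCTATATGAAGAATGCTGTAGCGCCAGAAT
chr3R:4571201-4571500, covered in the double mutant and not in w1118, intergenic, in H and 1360 copies: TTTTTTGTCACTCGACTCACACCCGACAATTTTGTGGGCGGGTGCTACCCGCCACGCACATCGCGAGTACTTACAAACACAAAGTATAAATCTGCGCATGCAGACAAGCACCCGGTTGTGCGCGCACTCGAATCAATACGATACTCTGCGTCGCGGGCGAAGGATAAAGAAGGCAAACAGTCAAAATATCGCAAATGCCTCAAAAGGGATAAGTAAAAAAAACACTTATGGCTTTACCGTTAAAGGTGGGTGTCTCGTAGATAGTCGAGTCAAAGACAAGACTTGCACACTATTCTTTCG
The second set shows the outer edge of each zone's longest run inside HP1 islands of all 3 w1118 libraries. Single libraries could run on past this edge, as w1118 replicates 1 and 2 did on 3L. Here 120 bases on each side of the edge are shown, with the side covered in all 3 libraries in capitals.
chr2L:21653081-21653320, outer edge, with 74 bases of an invader4 copy: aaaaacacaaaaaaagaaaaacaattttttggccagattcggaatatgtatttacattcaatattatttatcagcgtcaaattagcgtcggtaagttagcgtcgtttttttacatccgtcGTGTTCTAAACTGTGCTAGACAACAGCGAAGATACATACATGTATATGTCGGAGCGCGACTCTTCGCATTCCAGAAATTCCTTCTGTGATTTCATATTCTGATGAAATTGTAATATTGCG
chr3L:23079781-23080020, outer edge in intergenic sequence without an annotated element: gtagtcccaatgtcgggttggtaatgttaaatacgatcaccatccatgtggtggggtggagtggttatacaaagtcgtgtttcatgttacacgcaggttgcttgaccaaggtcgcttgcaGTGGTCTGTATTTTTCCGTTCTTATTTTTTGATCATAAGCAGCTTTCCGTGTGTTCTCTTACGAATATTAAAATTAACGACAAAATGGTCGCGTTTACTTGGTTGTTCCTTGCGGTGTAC
chr3R:4179481-4179720, outer edge in an intron of CG12581: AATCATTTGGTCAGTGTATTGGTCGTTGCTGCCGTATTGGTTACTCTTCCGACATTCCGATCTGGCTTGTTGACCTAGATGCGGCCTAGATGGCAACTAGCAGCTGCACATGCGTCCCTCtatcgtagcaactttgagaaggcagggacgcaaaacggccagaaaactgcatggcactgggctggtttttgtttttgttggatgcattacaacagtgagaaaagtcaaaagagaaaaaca

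Some properties of the lists touch the results. HP1 lists of replicates 2 and 3, in Top3b26 as in w1118, held no islands closer than 1100 bp to each other. This smallest distance was 700 bp in replicate 1 of both lines and in every AGO2 1-1-7, double mutant, complementation, H3K9me2 and H3K9me3 list, so the AGO2 1-1-7 lists share this setting with 1 of the 3 w1118 lists. The lists held 585 to 11046 islands each. Reads per library are not given in the sources used here, so depth is unknown and no counting interval could be set. FLAG islands covered 9.20% and 0.460% of the zones in the FLAG-AGO2 libraries and 12.1% in untagged w1118, so the tagged flies had no more coverage than the untagged control. According to the labels, 1 input library per line served all its libraries of both methylation marks.

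In w1118 the zones carried more HP1 than other euchromatin, and it was unevenly shared between the arms. HP1 islands covered 20.8%, 25.2% and 25.8% of the zones in the 3 w1118 libraries, against 4.22%, 9.26% and 4.90% of the remaining euchromatin of the same arms. The zones thus had 4.31 ± 1.38 times the coverage of that euchromatin (SD, n = 3), and the 500 kb on the heterochromatic side of the boundary had 67.4% ± 2.05. On 3L the HP1 coverage of the zone was 37.0%, 41.7% and 38.5%. On 3R it was 14.98%, 23.4% and 23.2%, and on 2L it was 10.5%, 10.6% and 15.9%. The 3 libraries of 3L lay above all values of the other arms.

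H3K9me2 islands covered 23.02%, 20.2% and 23.2% of the zones and H3K9me3 islands 12.5%, 18.1% and 16.6%. H3K9me2 differed from HP1 by -1.82 percentage points, which is within the spread of the libraries (two-sided exact permutation test, p = 0.4). H3K9me3 differed from HP1 by -8.21 points and all its libraries lay below all HP1 libraries, and H3K9me2 exceeded H3K9me3 by 6.39 points, again without overlap (exact permutation p = 0.1 for both). With 3 libraries against 3, or 2 against 3, 0.1 is the smallest p these tests can give, and with 2 against 2 it is 0.333. After Benjamini-Hochberg adjustment over all 24 tests the lowest p was 0.8, so none passed 0.05, and differences are given below by their size and by whether libraries overlap. Different antibodies also differ in efficiency, and how much of these gaps lies in the antibodies was not tested. Of the w1118 HP1 island length in the zones, 21.4%, 27.6% and 15.97% lay inside FLAG islands of untagged w1118. For H3K9me2 these shares were 3.27%, 6.92% and 6.59%, and for H3K9me3 they were 4.31%, 4.39% and 3.41%. The part of this overlap in the gaps between HP1 and the marks was not tested.

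**Figure D1:**
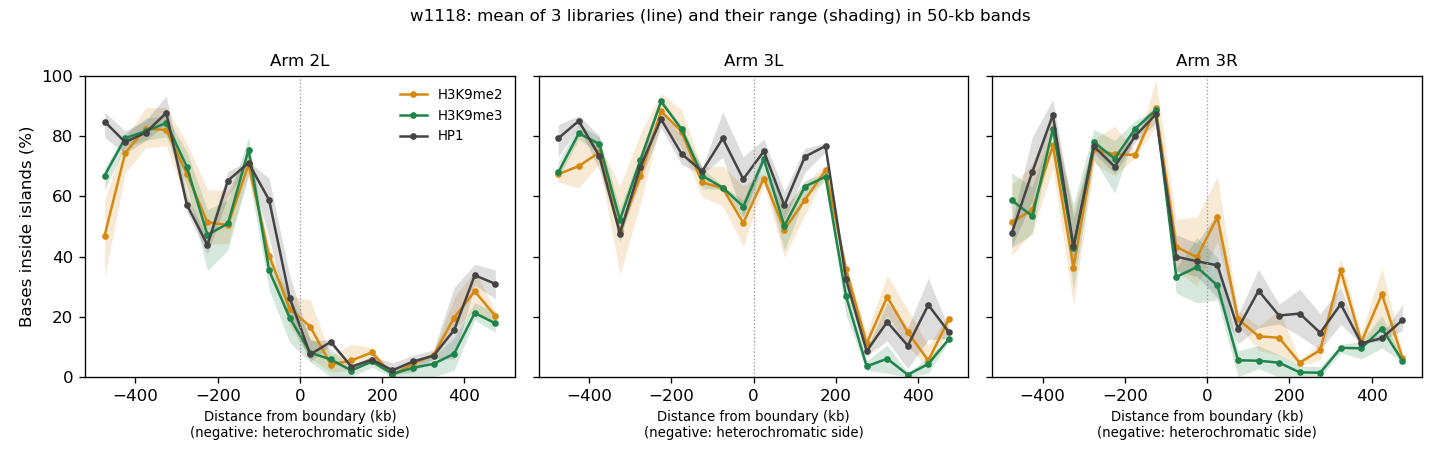
Coverage of 50-kb bands (y axis, % of bases) by H3K9me2, H3K9me3 and HP1 islands in w1118 against the distance from the boundary (x axis, kb, negative on the heterochromatic side), for each arm. Lines are means of 3 libraries and shading their range. On 3L coverage outside the boundary stays near that inside it for 200 kb, and among the bands outside the boundary HP1 is highest on 3R in the first 50 kb and low on 2L until about 350 kb.

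The 3 borders had different shapes, as the plot of w1118 coverage by arm shows. On 3L, HP1 did not drop at the boundary: mean coverage was 65.7% in the last 50 kb inside it, 75.0% in the first 50 kb outside, and 57.0%, 73.2% and 76.7% in the next 3 bands. It was 32.5% between 200 and 250 kb and 8.60% between 250 and 300 kb. H3K9me2 and H3K9me3 followed, with 68.7% and 66.5% between 150 and 200 kb and 11.1% and 3.53% between 250 and 300 kb. The fall of all 3 profiles on 3L therefore lay about 200 kb outside the cytological boundary.

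On 2L the order was the opposite. HP1 covered 7.47% of the first 50 kb and 2.20% between 200 and 250 kb, and then 33.8% between 400 and 450 kb and 30.9% in the last 50 kb of the zone. H3K9me2 had 28.5% and H3K9me3 21.3% between 400 and 450 kb of 2L, so this distal block carried all 3. Its longest HP1 run, 6100 bp at 21653201 to 21659300, was covered at 100% in every main HP1 library, those outside the complementation set, and at 96.7% in the w1118 library of that set. Of its length 59.3% is in elements, mainly invader4, an LTR retrotransposon, and it includes part of Cul2, which encodes a cullin. Reads with more than 3 hits were dropped by the study. Only 6.47% of the 50-base sequences of this invader4 copy had at most 3 exact matches in the genome. Island coverage over that copy is therefore weak evidence of HP1 or of the marks there. On 3R, HP1 covered 37.1% of the first 50 kb and between 11.2% and 28.7% of each later band. FLAG islands of untagged w1118 covered between 21% and 48.6% of each 3R band from 100 to 300 kb. They covered between 0% and 28.3% of the other bands of the 3R zone. H3K9me3 covered between 1.4% and 5.4% of each 3R band from 100 to 300 kb, and H3K9me2 between 4.72% and 13.5%. How far enrichment seen without a FLAG epitope adds to the 3R HP1 coverage was not tested.

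A continuous reach of HP1, counted in 10-kb windows at least 50% covered from the boundary outward, was 0 kb on 2L and 3R in every HP1 library of w1118 and AGO2 1-1-7, and 10, 50 and 50 kb on 3L in w1118. Averaged over arms it was 0 kb in the 2 libraries of AGO2 1-1-7 and also in those of the double mutant, against 3.33, 16.7 and 16.7 kb in w1118 (difference -12.2 kb for each, exact permutation p = 0.2). A single window under 50% ends this measure. It was 0 kb in the double mutant although its coverage of the first 50 kb, given below, lay within the range of w1118.

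**Figure D2:**
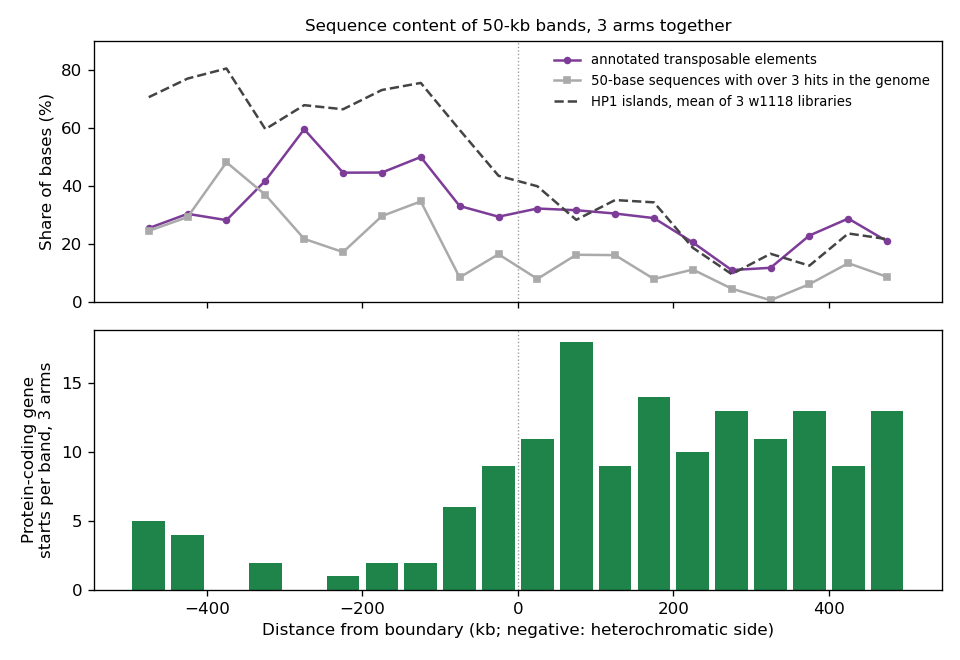
Upper panel, the share of bases (y axis, %) in annotated transposable elements, the share of 50-base sequences with over 3 exact matches in the genome, and mean HP1 coverage of 3 w1118 libraries, in 50-kb bands against the distance from the boundary (x axis, kb). Lower panel, protein-coding gene starts per band, 3 arms together. Outside the boundary, element content and HP1 coverage both have their lowest band at 250 to 300 kb and are higher again at 400 to 450 kb.

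The zones were rich in transposable elements, mobile DNA that heterochromatin normally keeps silent. Annotated elements made up 23.8% of the zones, against 3.58% of the remaining euchromatin of these arms and 38.7% of the 500 kb inside the boundary. The zones held 548 whole insertions of 71 families, of which 326 were INE-1, a short and old DNA element. Elements were 35.9% of the 3L zone, 19.1% of 2L and 16.4% of 3R. By distance their content was 32.2% in the first 50 kb, 10.9% between 250 and 300 kb and 28.7% between 400 and 450 kb, and mean HP1 coverage in w1118 was 39.9%, 9.47% and 23.5% in the same bands.

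Within the zones, HP1 islands of w1118 covered 46.9%, 46.6% and 54.5% of the bases in elements and 12.6%, 18.5% and 16.9% of the other bases. Of the 50-base sequences in these elements, 62.7% had at most 3 exact matches in the genome. Where zone sequences had more, islands covered 33.0%, 29.9% and 33.1%, and elsewhere 19.6%, 24.7% and 25.1%. Reads from the former were dropped, and how far this affects the comparison of elements with other bases was not tested. The 150 insertions of at least 500 bp gave 83 that were covered by 50% or more in every w1118 library. Of 12 such copies of 1360, a DNA transposon, 11 were covered, and of 15 of Cr1a, a LINE-like retrotransposon, 13 were. No insertion of at least 500 bp of Quasimodo, roo or Burdock, all LTR retrotransposons, was covered in all w1118 libraries. The study dropped reads with more than 3 hits, and only 3.91%, 2.43% and 1.89% of the 50-base sequences in these 3 families had at most 3 exact matches in the genome, against 95.9% for INE-1 and 90.8% for the whole zones. The absence of islands from these 3 families is therefore not informative on HP1. Families with few repeated sequences also differed. HB had 3 of 13 such insertions covered, gypsy12 0 of 3 and mariner2 5 of 5. The share of their 50-base sequences with at most 3 matches was 92.3%, 100% and 99.8%. For 1360 and Cr1a this share was 51.5% and 86.0%.

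**Figure D3:**
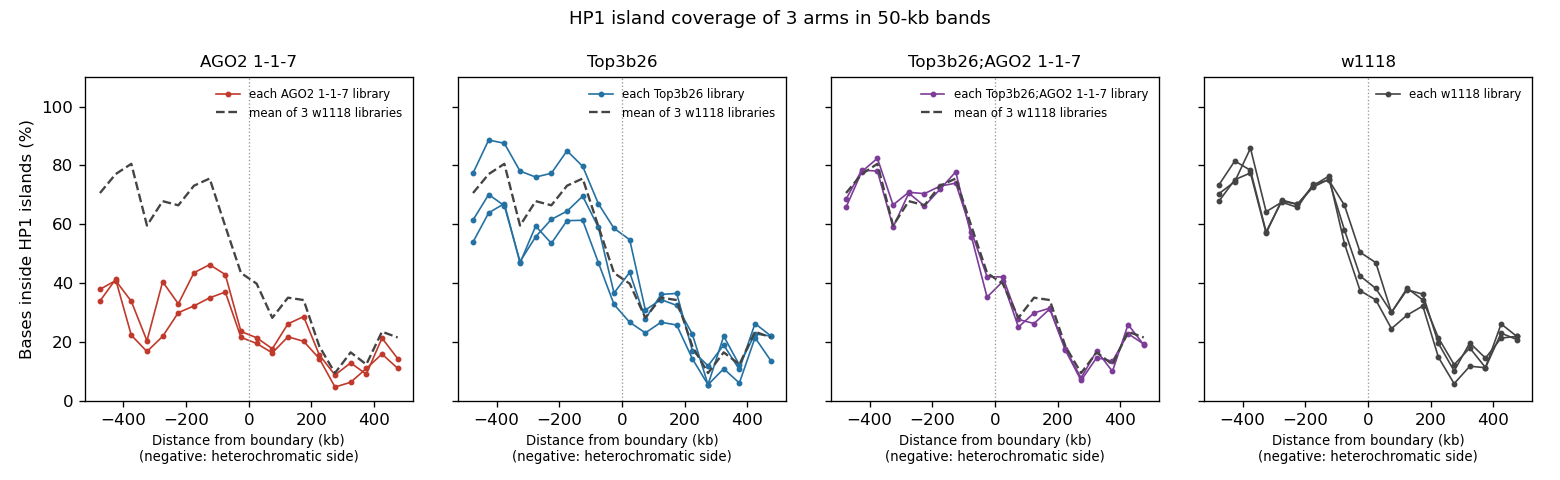
HP1 coverage of 50-kb bands of the 3 arms together (y axis, % of bases) against the distance from the boundary (x axis, kb, negative on the heterochromatic side), for each library of AGO2 1-1-7, Top3b26, the double mutant and w1118. The dashed line is the mean of the 3 w1118 libraries. Both AGO2 1-1-7 libraries run below it on both sides of the boundary, and the double mutant libraries run along it.

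AGO2 1-1-7 had the lowest mean HP1 coverage of the zones among the 4 lines. HP1 islands covered 14.1% and 17.6% in its libraries, against 20.8%, 25.2% and 25.8% in w1118, so the groups did not overlap. The difference was -8.06 points (exact permutation p = 0.1, adjusted p = 0.8). It was -4.91 against the 1 w1118 library whose list has the same smallest distance between islands, and -7.80 when islands of every list were joined across gaps of up to 1100 bp. The groups did not overlap on any arm, with a mean on 3L of 27.1% in AGO2 1-1-7 and 39.0% in w1118, on 3R of 11.5% in AGO2 1-1-7 and 20.5% in w1118, and on 2L of 9.05% in AGO2 1-1-7 and 12.3% in w1118.

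Among the bands outside the boundary, the gap was widest in the first. In the first 50 kb, coverage was 19.5% and 21.5% in AGO2 1-1-7, against 34.3%, 38.2% and 47.0% in w1118, a ratio of means of 0.514. In the last 50 kb inside the boundary the pooled ratio was 0.520, with a mean of 22.6% in AGO2 1-1-7 and 43.5% in w1118. For the pooled arms the ratio was thus nearly the same on both sides of the boundary. Outside it, the ratio was 0.603, 0.684, 0.714 and 0.809 in the next 4 bands, and between 0.583 and 0.811 further out. In all 10 pooled bands AGO2 1-1-7 had the lower mean, and in 6 of them its libraries did not overlap those of w1118. Near the boundary the arms differed. In the first 50 kb outside, AGO2 1-1-7 and w1118 had means of 11.3% and 7.47% on 2L, so AGO2 1-1-7 was not lower there. These means were 33.0% and 75.0% on 3L and 17.2% and 37.1% on 3R. In the last 50 kb inside they were 26.1% and 26.3% on 2L, 17.8% and 65.7% on 3L, and 23.9% and 38.4% on 3R. The distal block of 2L had a lower mean too, with 22.9% in AGO2 1-1-7 and 33.8% in w1118 between 400 and 450 kb. With the arms pooled, libraries overlapped in this band, and the longest HP1 run of the block was at 100% in both AGO2 1-1-7 libraries.

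The remaining euchromatin was also lower in AGO2 1-1-7, at 1.18% and 3.78% against 4.22%, 9.26% and 4.90% in w1118. Zone minus remaining euchromatin differed between the lines by -4.41 points (exact permutation p = 0.2). As a ratio, the zones had 12.0 and 4.67 times the coverage of that euchromatin in AGO2 1-1-7, against 4.93, 2.72 and 5.28 in w1118. These libraries overlapped, with the higher mean in AGO2 1-1-7. In relative terms the zones were therefore not more reduced than the remaining euchromatin. Lower values were thus found on both sides of the outer limit of the zones.

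Of the 1500 bins, 48 were covered by 50% or more in every w1118 library and in no AGO2 1-1-7 library. The same call was met by 1.03% of all euchromatic bins, against 3.20% of those in the zones. Among bins with HP1 to begin with, the order was the other way: the 48 were 19.2% of the 250 zone bins covered in every w1118 library, while over the euchromatin the corresponding share was 26.8%. Of the 48 bins, 32 lay on 3L, 9 on 2L and 7 on 3R, and 18 lay in the first 50 kb. Bins covered in both AGO2 1-1-7 libraries and in no w1118 library numbered 5, with a background of 0.0223% of euchromatic bins. The lower count was between 54 and 95 when 1 library was left out, with 95 without AGO2 1-1-7 replicate 2 and 77 without w1118 replicate 1. The higher count was 24 without AGO2 1-1-7 replicate 2 and 9 without AGO2 1-1-7 replicate 1 or without w1118 replicate 3.

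The bins that differed mostly carried histone marks in w1118. H3K9me2 was present in all 3 w1118 libraries in 35 of the 48, or 72.9%, and H3K9me3 in 60.4%. Among the 149 bins covered in both AGO2 1-1-7 and all w1118 libraries these shares were 70.5% and 68.5%. Mean element content was 44.2% in the 48 bins and 64.4% in the 149. HP1 coverage of element bases was 38.9% and 39.3% in AGO2 1-1-7 against 46.9%, 46.6% and 54.5% in w1118, and of other bases 6.41% and 10.8% in AGO2 1-1-7 against 12.6%, 18.5% and 16.9% in w1118. The series holds no H3K9me2 or H3K9me3 library from AGO2 1-1-7, so its methylation is unknown here.

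The longest stretch covered in every w1118 library and in no AGO2 1-1-7 library was 4600 bp on 3L, from 23212401 to 23217000. It lies 30.0 kb outside the boundary in nAChRalpha4, which encodes a subunit of the nicotinic acetylcholine receptor, the main excitatory receptor of the fly brain, and 4555 of its bases are intronic. The gene itself spans the boundary. HP1 islands covered 17.1% and 22.3% of nAChRalpha4 in AGO2 1-1-7, against 57.4%, 73.9% and 73.0% in w1118. The middle of the stretch is the first sequence given above, with its mdg1 copy. It was inside H3K9me2 and H3K9me3 islands over its whole length in all 3 libraries of Top3b26 and of w1118, and inside HP1 islands at 78.3% and 100% in the double mutant. The next longest stretches were 3300 bp in another intron of nAChRalpha4 and 3000 bp in an intron of CG34031, and in all 50.8 kb of the zones, in 50 stretches, was covered in every w1118 library and in no AGO2 1-1-7 library.

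In the opposite direction there were 4.90 kb. The longest stretch was 1900 bp in an intron of nrm, which encodes neuromusculin, a cell adhesion protein of the immunoglobulin family, and 984 of its bases are in elements, mainly an FB copy. It was covered at 100% in both AGO2 1-1-7 libraries and at 0% in all 3 w1118 libraries of the main set. The w1118 library of the complementation set covered it at 100%, so libraries of w1118 differed from each other at this place. The next longest, 1000 bp on 3R with 41.7% of its length in INE-1 copies and 600 bp on 2L with 88.3% in an INE-1 copy, were also at 100% in that library.

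The libraries of the double mutant lay within the range of w1118 over the zones. HP1 covered 22.2% and 22.5% in the double mutant, against 20.8%, 25.2% and 25.8% in w1118, a difference of -1.62 points with overlapping libraries (exact permutation p = 0.4). Against the w1118 list of the same smallest distance the difference was 1.54 points in the other direction. Set beside AGO2 1-1-7, whose 14.1% and 17.6% lay below both values, the difference was 6.45 points (two-sided exact permutation test, p = 0.333, adjusted p = 0.8). All lists of both lines have the same smallest distance. In the first 50 kb, coverage was 42.1% and 40.6% in the double mutant and 19.5% and 21.5% in AGO2 1-1-7. The double mutant lay above AGO2 1-1-7 without overlap in 8 of the 10 bands. By arm the lines did not overlap on 2L or 3L. On 3R they did, at 13.44% and 17.86% in the double mutant and 9.42% and 13.58% in AGO2 1-1-7. Against w1118, the mean of the double mutant was lower in 8 of the 10 bands, without overlap in 2 of them. The mean on 3R was 15.65% in the double mutant and 20.5% in w1118, with overlapping libraries.

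Bins covered in both double mutant libraries and in neither AGO2 1-1-7 library numbered 56, with a background of 0.724% of euchromatic bins. In the other direction there was 1 bin, with a background of 0.067%. This was 0.578% of the zone bins covered in both AGO2 1-1-7 libraries, against 4.20% over the euchromatin. Of the 56, 33 lay on 3L and 22 in the first 50 kb. Without double mutant replicate 2 there were 94 and without AGO2 1-1-7 replicate 2 there were 93, and the lower count was 5 to 16 when any 1 library was left out. The longest such stretch, 3400 bp on 3R from 4191001 to 4194400, overlaps the pseudogene CR33294 outside protein-coding genes, with 61.3% of its length in elements, mainly Tc1-2. It was covered at 100% in both double mutant libraries and at 0% in both AGO2 1-1-7 libraries, but also at 0% in 2 of the 3 w1118 libraries. The second and the third longest were nearly the nAChRalpha4 and CG34031 introns that separated AGO2 1-1-7 from w1118.

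Against w1118 the double mutant had 5 lower bins, with a background of 0.414%, and 9 higher bins, with a background of 0.0362%. The 5 were 2.00% of the bins covered in every w1118 library, against 10.8% over the euchromatin. Of the 9 higher bins 6 lay on 2L, where the first 50 kb had 23.2% and 15.4% in the double mutant, against 5.20%, 5.20% and 12.0% in w1118, while the w1118 library of the complementation set had 23.8% there. The longest higher stretch was 2900 bp on 3R, from 4569901 to 4572800, with 37.97% of its length in elements, mainly an H copy. It was at 100% in both double mutant libraries and at 0% in the 3 main w1118 libraries, yet at 100% in the w1118 library of the complementation set. The lower count was 8 and 28 without double mutant replicates 1 and 2 and 31 and 12 without w1118 replicates 1 and 3, and the higher count was 15 and 30 without double mutant replicates 1 and 2 and 20 without w1118 replicate 3. Against Top3b26, coverage of the double mutant differed by -0.53 points (exact permutation p = 1), with 4 lower bins, background 0.102%, and 4 higher bins, background 0.0362%. The 4 lower bins were 1.79% of the zone bins covered in every Top3b26 library, against 3.96% over the euchromatin. The lower count reached 24 without Top3b26 replicate 1 and the higher count 32 without double mutant replicate 2.

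**Figure D4:**
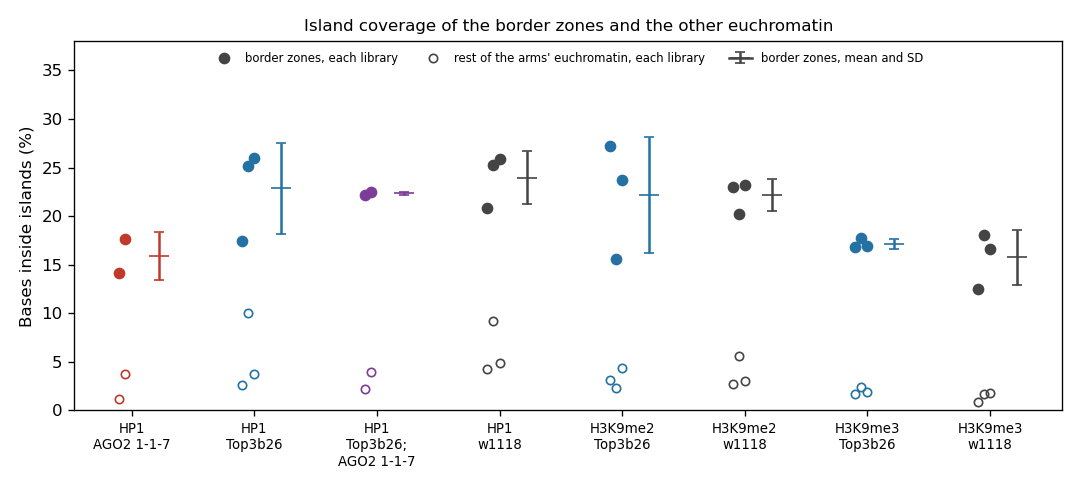
Coverage (y axis, % of bases) of the border zones (filled points) and of the remaining euchromatin of the 3 arms (open points) in each library, with the mean and SD of the zones, for HP1, H3K9me2 and H3K9me3 (x axis, lines). AGO2 1-1-7 lies below w1118, and the libraries of Top3b26 overlap those of w1118 for every target.

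Top3b26 showed no difference from w1118 beyond the spread of its libraries. HP1 covered 17.5%, 25.1% and 26.0% in Top3b26, against 20.8%, 25.2% and 25.8% in w1118 (difference -1.09 points, exact permutation p = 0.8). The difference was -2.67 to 1.61 points when 1 library was left out, with 1.61 without Top3b26 replicate 1, which is the lowest library, and -2.67 without w1118 replicate 1. Libraries of the 2 lines were paired by replicate number, as described below, so leaving out 1 library breaks a pair. By pair, Top3b26 had 17.5% against 20.8% in w1118, 25.1% against 25.2%, and 26.0% against 25.8%. In the first 50 kb the 3 Top3b26 libraries had 26.7%, 43.7% and 54.8%, a wider range than the 34.3% to 47.0% of w1118. Lower bins numbered 1, with a background of 0.0319%, and higher bins 0, with a background of 0.00425%. Of bins covered in every w1118 library, the lower share was 0.4% in the zones and 0.832% over the euchromatin. The lower count was 1 to 6 when 1 library was left out, with 6 without Top3b26 replicate 3. The lower one lay in nrm, where 700 bp of an intron were covered in every w1118 library and in no Top3b26 library, and the Top3b26 library of the complementation set covered it at 85.7%.

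H3K9me2 covered 27.2%, 15.6% and 23.8% of the zones in Top3b26, against 23.02%, 20.2% and 23.2% in w1118 (difference 0.03 points, exact permutation p = 1). H3K9me3 covered 16.8%, 17.7% and 16.9% in Top3b26, against 12.5%, 18.1% and 16.6% in w1118 (difference 1.41 points, exact permutation p = 0.7). H3K9me2 had 2 lower bins, background 0.0989%, and 0 higher, background 0.0234%. H3K9me3 had 1 lower bin, background 0.0106%, and 4 higher, background 0.0702%. Among bins covered in every w1118 library, the lower share was 0.840% in the zones and 3.41% over the euchromatin for H3K9me2. For H3K9me3 these shares were 0.592% and 0.611%. The H3K9me2 difference was -2.48 points without Top3b26 replicate 1 and 3.34 without Top3b26 replicate 2, when its higher count was 12. The H3K9me3 difference was -0.20 points without w1118 replicate 1 and 2.57 without w1118 replicate 2. The reach of H3K9me3, averaged over arms, was 16.7, 0 and 3.33 kb in Top3b26, against 16.7 kb in each w1118 library. This difference was -10 kb (exact permutation p = 0.4).

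The complementation libraries, 1 per line and without replicates, gave 27.03% in Top3b26 with WT, 26.2% with Y332F and 24.9% with dRGG, 24.9% in Top3b26 without a transgene and 26.5% in w1118. The whole range is 24.9% to 27.03%. It is narrower than that of the 3 main w1118 libraries, and no order of the lines can be read from it. In the 500 kb inside the boundary coverage was 73.7% with WT, 55.8% with Y332F, 66.0% with dRGG, 71.2% without a transgene and 78.5% in w1118.

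The zones hold 119 whole protein-coding genes, 26 on 2L, 28 on 3L and 65 on 3R. HP1 islands covered 50% or more of 9 of them in every w1118 library, or 7.56%, against 2.19% of 11575 genes over the euchromatin of chromosomes 2 and 3. H3K9me2 did so for 15 genes, or 12.6% against 2.98%, and H3K9me3 for 3, or 2.52% against 0.415%. At 22 genes no island of any target was seen in any of the 9 w1118 libraries, that is 18.5% of the genes against 46.9% over the euchromatin. In AGO2 1-1-7, 2 of the 9 HP1 genes were under 50% in both libraries, with a background of 0.924% of euchromatic genes. Over the euchromatin, 107 of the 253 genes with HP1 in every w1118 library met this call, and 2 of 9 is a lower share than that.

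**Figure D5:**
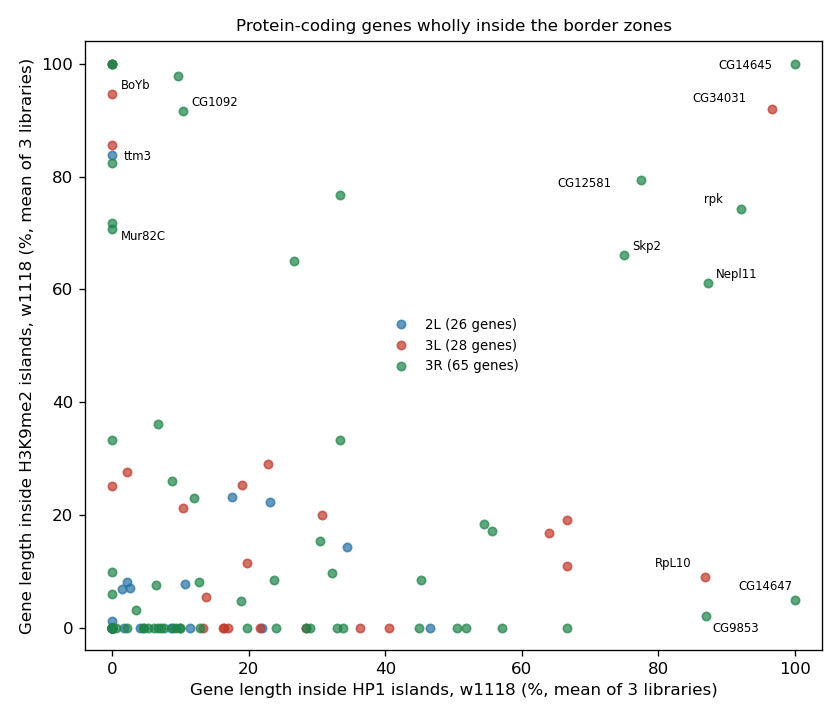
Each point is a protein-coding gene wholly inside a border zone, placed by the share of its length inside HP1 islands (x axis, %) and inside H3K9me2 islands (y axis, %) in w1118, means of 3 libraries each, coloured by arm. Named genes fall into a corner with both, a corner with HP1 alone (RpL10, CG9853, CG14647) and an edge with H3K9me2 and little or no HP1 (BoYb, ttm3, Mur82C, CG1092).

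The genes fell into classes that were chosen after their values were seen. With all 3 targets were CG34031, CG12581 and rpk, the last encoding a sodium channel subunit of the DEG/ENaC family, or 2.52% of the border genes against 0.216% over the euchromatin. HP1 covered 59.3% and 61.5% of CG34031 in AGO2 1-1-7, 77.4%, 90.3% and 100% in Top3b26 and 91.6% and 95.1% in the double mutant, against 95.1%, 95.1% and 100% in w1118. This gene has 52.1% of its length in elements, and its AGO2 1-1-7 values lay below those of every other line. HP1 covered rpk, 480 kb from the boundary, at 100% in both AGO2 1-1-7 libraries, against 76.4%, 100% and 100% in w1118, so no lower HP1 was seen at this gene far from the boundary.

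CG12581 is the protein-coding gene nearest to the 3R boundary, 8.99 kb away. HP1 covered 14.03% and 46.8% of it in AGO2 1-1-7, 27.8%, 100% and 100% in Top3b26 and 37.3% and 41.8% in the double mutant, against 69.9%, 74.8% and 87.6% in w1118. It was the 1 gene under 50% in every double mutant library and over it in every w1118 library, with a background of 0.389%, or 45 of the 253 euchromatic genes with HP1 in every w1118 library. The longest HP1 run shared by all w1118 libraries in the 3R zone, 5700 bp, ended in its intron, at the edge shown last among the sequences. Beside CG12581, Dsk, which encodes the drosulfakinin neuropeptides, was at 0% in AGO2 1-1-7 and at 0%, 0% and 100% in w1118, and beta-Man, a beta-mannosidase, at 25.8% and 28.4% in AGO2 1-1-7 and 23.1%, 23.1% and 33.9% in w1118.

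RpL10, a protein of the large ribosomal subunit, carried HP1 with little methylation. HP1 covered 20.6% and 51.8% of it in AGO2 1-1-7, 55.7%, 100% and 100% in Top3b26 and 33.8% and 64.9% in the double mutant, against 60.6%, 100% and 100% in w1118. In w1118 H3K9me2 covered 0%, 26.8% and 0% of RpL10 and H3K9me3 covered none of it. It lies at the inner end of a run of 13.9 kb on 3L from 23079901 to 23093800, of which the rest is intergenic and rich in elements such as 1360. The other genes with HP1 but without both marks, CG9853 and CG14647, overlap each other on 3R and share an island. These 3 genes are 2.52% of the border genes, against 1.03% over the euchromatin. CG14647 was at 100% in every main HP1 library, and also at 100% in the FLAG library of untagged w1118. In the complementation set its HP1 coverage was 40.3% in Top3b26 with WT and 20.4% in w1118.

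The same FLAG library covered most bins of this kind. Of the 32 bins with HP1 in all 3 w1118 libraries and neither mark in any, 24 lay in FLAG islands of untagged w1118, or 75.0%, against 12.5% of all 1500 bins and 5.52% of the 145 bins with HP1 and both marks. Of these 32 bins, 26 held no annotated element. Untagged flies carry no FLAG epitope, and the part of this shared enrichment in the HP1 islands of these bins was not tested. Nepl11, the other gene lower in AGO2 1-1-7, at 0% and 32.2% against 63.4%, 100% and 98.4% in w1118, was also at 100% in that FLAG library. It lies inside cpx, which encodes complexin, a regulator of synaptic vesicle fusion, and cpx was at 0% and 19.6% in AGO2 1-1-7 and 21.2%, 46.7% and 28.6% in w1118, with 48.7% in the untagged FLAG library. nAChRalpha4, CG34031 and RpL10 were at 0% in it.

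The reverse class was H3K9me2 without HP1. In 40 bins H3K9me2 was present in all 3 w1118 libraries and HP1 in none, 27 of them on 3R, and 0 of the 40 lay in FLAG islands of untagged w1118. By contrast, of the 169 bins with H3K9me3 in all w1118 libraries 93.5% also had HP1 in all, and 3 had HP1 in none. The 10 genes ttm3, CG32459, CG32461, BoYb, TwdlF, CG34425, Mur82C, CG1092, CG31528 and sac had at least 50% H3K9me2 in every w1118 library and under 50% HP1 in every one, or 8.40% of the border genes against 2.00% over the euchromatin. Of BoYb, a Tudor-domain protein of the germline piRNA pathway, H3K9me2 covered 97.5%, 38.5% and 97.5% in Top3b26 and 94.7% in each w1118 library, and HP1 covered none in any line. Mur82C, a mucin-related gene, had 80.6%, 64.5% and 75.3% H3K9me2 in Top3b26, 69.9%, 75.3% and 69.9% in w1118, and no HP1 in the main libraries.

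ttm3, related to a subunit of the mitochondrial import machinery, is the gene nearest to the 2L boundary, 9.26 kb away. H3K9me2 covered 0%, 0% and 39.6% of ttm3 in Top3b26, against 100%, 75.7% and 75.7% in w1118, and no library of these lines had H3K9me3 or HP1 there. It was the 1 gene lower in H3K9me2, of 15, with a background of 0.199%, or 23 of the 345 euchromatic genes with H3K9me2 in every w1118 library. CG1092 on 3R was the 1 gene higher in H3K9me3, with a background of 0.112%. H3K9me3 covered 85.1%, 91.5% and 85.1% of CG1092 in Top3b26, against 1.03% in each w1118 library, while H3K9me2 was at 91.5% in all 6 libraries. HP1 at CG1092 was at 1.03%, 1.03% and 26.9% in Top3b26, against 1.03%, 1.03% and 28.9% in w1118.

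The other genes near the 2L boundary were nearly free of HP1. There, tplus3a and CG42597, 17.1 and 24.7 kb out, had at most 3.24% HP1 in any library of the 4 lines. On 3L, CG33217 had 28.7% and 30.7% in AGO2 1-1-7 and 29.1%, 30.7% and 32.3% in w1118, and Vps11, which acts in vesicle transport to lysosomes, 31.6% and 35.1% in AGO2 1-1-7 and 35.1%, 38.6% and 35.1% in w1118. At both genes the libraries of AGO2 1-1-7 and w1118 overlapped, unlike those of the 3L zone as a whole. The homeotic zinc-finger gene tsh and its paralog tio lie 253 and 64.3 kb outside the 2L boundary, where coverage is low. HP1 covered 0% of tsh in both AGO2 1-1-7 libraries and 0%, 3.66% and 1.28% in w1118, and 2.96% to 4.49% of tio in every main library of the 4 lines, while the w1118 library of the complementation set had 0% at tio.

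The long genes further out held HP1 at parts of their length. HP1 covered 14.96% and 14.4% of Ac3, an adenylyl cyclase, in AGO2 1-1-7 and 22.9% and 25.5% in the double mutant, against 24.8%, 23.5% and 20.9% in w1118, so AGO2 1-1-7 did not overlap w1118. SPoCk, a calcium pump of the secretory pathway, had 14.9% and 19.8% in AGO2 1-1-7 and 20.3%, 20.1% and 16.8% in w1118. HP1 covered 9.22% and 3.18% of CG34357 in AGO2 1-1-7, against 10.2%, 12.0% and 13.5% in w1118, without overlap, while at nolo, nrm and step the libraries overlapped. At slif, an amino acid transporter, H3K9me2 covered 7.04%, 21.9% and 31.3% in Top3b26 and 21.1%, 46.2% and 15.7% in w1118, with overlap, although 500 bp of its introns had H3K9me2 in every w1118 library and in no Top3b26 library.

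Top3b islands covered 3.19%, 5.05% and 2.47% of the zones in the 3 w1118 libraries, and 3.52%, 5.13% and 0.759% of the remaining euchromatin. The library titled as replicate 2 is described as replicate 3 in another label, and the title was used. Of the Top3b island length in the zones, 56.7%, 69.5% and 94.7% lay inside HP1 islands of w1118 (mean over 3 HP1 lists), and 91.2%, 61.3% and 17.3% inside FLAG islands of untagged w1118. The library with the most HP1 overlap was thus the one with the least overlap with the untagged control, and the 3 Top3b lists are not alike. Of the Top3b length in replicate 3, 88.6% lay inside H3K9me2 islands and 90.5% inside H3K9me3 islands, while in replicate 1 these shares were 5.36% and 5.78%.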

How the data were processed

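The data are 33 island lists from ChIP-seq of fly heads. The authors mapped 50-base reads to dm6 with Bowtie and dropped reads with more than 3 hits. They called islands against input DNA with SICER in windows of 100 bp, and each deposited list gives positions and a whole-number score, whose unit is not stated. Scores served only as a filter. Coverage, bins of 1 kb and bands of 50 kb were computed with Python 3.11.15 and numpy 2.4.6. A bin or gene was called when at least 50% covered in all libraries of a group and in none of the other group. Groups came from the labels, and means were compared with exact permutation tests. The routines were tested on simulated islands. Genes and elements came from the BDGP6.54 annotation, and matches of 50-base sequences from the RefSeq genome.

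Replicate numbers paired HP1 libraries of Top3b26 and w1118: deviations from the group means correlated at 0.462, 0.505 and 0.502, and the labels do not say why. Genes named by rule were the 3 nearest to each boundary, the 3 per arm with most HP1 in w1118, those at the longest runs and stretches, and tsh and tio. Other genes, among them rpk, Nepl11, CG9853, CG14647 and CG1092, were named as members of the gene classes or calls. BoYb and Mur82C were picked by no fixed rule from the 10 genes with H3K9me2 and without HP1. Members and lists were chosen with earlier results of these data known. The alternatives tried were other minimum scores, joined gaps, equal numbers of islands, 250 kb zones, other bin and window limits, libraries left out, replicate blocks, and coverage over 50-base sequences with at most 3 matches. The 22 input samples were not used here. The label of H3K9me3 in Top3b26 replicate 2 names H3K9me2 in one field, and its islands shared 81.0% and 74.8% of their union with the other H3K9me3 lists of the line, against 57.5% to 58.2% with its H3K9me2 lists, so its title was kept.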

Additional observations from a re-analysis of the deposited data

How the results depend on the processing

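The tests were run under 302 alternatives, of which 32 reversed the sign of the difference and none gave an exact p under 0.1. The other 270 did not reverse it, including some where a difference was 0. Signs turned round in differences that were small or uneven between libraries, and the cause was not tested. For border coverage, the difference of Top3b26 from w1118 was 0.0366 points within lists with a smallest distance of 1100 bp, that of the double mutant from w1118 was 1.54 within lists with 700 bp, and that of the double mutant from Top3b26 was 0.0278 with joined islands and 4.88 within lists with 700 bp. That of H3K9me2 between Top3b26 and w1118 was -0.136 with joined islands and -0.869 over 250 kb. For border minus other euchromatin, the difference of Top3b26 from w1118 was 0.131 for HP1 with equal numbers of islands and 0.238 within lists with 1100 bp, for H3K9me2 -0.333 over 250 kb, and for H3K9me3 -0.395 without a minimum score and -0.137 with equal numbers of islands. For reach, the HP1 difference of Top3b26 from w1118 was -2.22 kb with joined islands, -22.2 kb with windows at least 25% covered and -3.33 kb within lists with 700 bp, and the H3K9me2 difference was 4.44 kb with joined islands and also with 20-kb windows. AGO2 1-1-7 remained below w1118 in border coverage under every alternative, by -10.2 points at a minimum score of 400, -7.13 without a minimum score, -6.14 with equal numbers of islands, -11.0 over 250 kb, and -8.39 over 50-base sequences with at most 3 matches, an alternative chosen after seeing the data.

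With the replicate block, the difference of the double mutant from Top3b26 in border coverage was 1.04 points (exact permutation p = 1) and that of AGO2 1-1-7 from w1118 was -7.12 (exact permutation p = 0.5). The block changed no other direction and no call.

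Leaving out 1 library at a time gave the following ranges of border coverage: -9.81 to -6.32 points for AGO2 1-1-7 against w1118, -2.67 to 1.61 for Top3b26 against w1118, -3.23 to 1.04 for the double mutant against Top3b26, -2.48 to 3.34 for H3K9me2 and -0.202 to 2.57 for H3K9me3. For border minus other euchromatin, Top3b26 against w1118 had -2.87 to 1.13 for HP1, -2.00 to 3.41 for H3K9me2 and -0.401 to 1.92 for H3K9me3. Reach had -3.89 to 9.44 kb for HP1, -1.67 to 0 kb for H3K9me2 and -15 to -6.67 kb for H3K9me3 in Top3b26 against w1118. Bins lower numbered 54 to 95 for AGO2 1-1-7, 1 to 6 for Top3b26 and 7 to 31 for the double mutant against w1118, 6 to 24 for the double mutant against Top3b26, 5 to 16 against AGO2 1-1-7, 3 to 5 for H3K9me2 and 1 to 3 for H3K9me3. Bins higher numbered 5 to 24, 0 to 1, 11 to 30, 4 to 32, 71 to 94, 0 to 12 and 4 to 8 for the same 7 comparisons in that order.

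Among other settings, the 1 bin lower in Top3b26 was lost when complementation libraries were added, leaving 0. Bins higher in AGO2 1-1-7 were 1 at a minimum score of 400 and 8 at a bin limit of 25%, and bins higher in the double mutant against w1118 were 5 at 400 and 5 with equal numbers of islands. The double mutant against Top3b26 had 2 lower bins with joined islands, 2 higher at 400 and 1 higher with equal numbers, and against AGO2 1-1-7 it had 2 lower with equal numbers and 0 at 25%. H3K9me2 had 1 lower bin at 400, with equal numbers and at 25%. H3K9me3 had 2 lower without a minimum score, 3 with equal numbers and 0 at 25%, and 2 higher in each of the first 2 of these settings and at 400. Depth is unknown for all lists, and 90.8% of the 50-base sequences of the zones had at most 3 matches in the genome, the rest being out of reach of the reads kept.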
